A study of Danio rerio with 12 samples.

Results

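Transducin and phosphodiesterase 6 (PDE6) are the enzymes that carry the light signal inside rods and cones, and 10 of their subunit genes were followed here in zebrafish larvae exposed to silver. The genes were taken by name: the probes of a 2-colour Agilent array whose annotated symbol, updated through RefSeq, was that of a member were averaged per gene on each array. The set was proposed with results of these data known and so counts as chosen by the log ratios of both exposed groups against control. All 10 genes were found, on 19 probes, among 15080 named genes measured and 25264 features tested (a feature is a named gene or an unnamed probe). The 5 rod subunits (gnat1, gngt1, pde6a, pde6b and pde6ga) had 8 probes and the 5 cone subunits (gnat2, gngt2a, gngt2b, pde6c and pde6ha) had 11. Per the labels, all larvae were wild type, of the AB strain and 21 days old, and RNA came from entire larvae. From 6 days post fertilization and for 15 days, they were kept with silver nitrate (AgNO3) at 0.01 mg/L, with silver nanoparticles (AgNPs) at 0.01 mg/L, or as controls in conditioned water with methylene blue. Each of 6 AgNO3 and 6 AgNPs arrays set an exposed sample against a control sample, so each value is a ratio against a control. Going by the sample codes, there were 6 control samples and both exposed groups were hybridised against the same 6, so the comparisons share their controls. No label gives the number of tanks, any pooling of larvae or the size of the particles. P-values therefore cover no more than the spread between samples within groups, which may be technical. The fit pooled that spread over all 12 arrays, so a group's p-value does not measure the spread of its own 6 samples alone.

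In a photoreceptor, light-activated opsin switches on transducin, a G protein made of an alpha, a beta and a gamma subunit. Its alpha subunit then lifts the inhibitory subunits off PDE6, and the freed catalytic subunits break down cyclic GMP, which closes cation channels in the outer segment. Rods and cones build the machinery from separate genes. In vertebrates, rods use the transducin subunits Gnat1 and Gngt1, the catalytic subunits Pde6a and Pde6b and the inhibitory subunit Pde6g, whereas cones use Gnat2, Gngt2, the catalytic subunit Pde6c and the inhibitory subunit Pde6h. The zebrafish has duplicate copies of several of these genes, and the pineal organ also holds photoreceptor cells. The array cannot show in which cell a transcript lies, and in RNA of whole larvae fewer photoreceptors and less transcript per cell cannot be told apart.

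Values are log2 ratios of the 2 channels as deposited, read as exposed over control, with base 2 an assumption. If Cy5 was divided by Cy3, as is usual, that order holds for the 3 arrays per group that carried exposed RNA in Cy5. The sample titles name the control first. The order is not settled, and with the opposite order every sign below turns. Nor do the sources say whether the other 3 arrays per group, with exposed RNA in Cy3, had been turned to the same direction before deposit. Over 9042 genes with at least 2 probes, the mean of a probe in 1 orientation correlated with that of the same probe in the other at -0.056 in AgNO3 and -0.085 in AgNPs, and with that of another probe of the gene at 0.012 and 0.026. These correlations are across genes, which are not independent replicates. Values were used as deposited, and each member is also given by orientation, because a probe's own dye bias would look like exposure if the arrays had not been turned. Arrays differed in spread: the interquartile range over probes was 0.0946 to 0.116 for replicates 3 to 6 of AgNPs, 0.233 and 0.293 for its replicates 2 and 1, and 0.216 to 0.342 in AgNO3. Ratios carry no level, so the presence of rods and cones was not checked by the level of their markers. What can be stated is limited by the number of arrays, their unequal spread, the unknown turning and disagreement between probes of a gene.

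The plot of every array shows 1 gene with a mean apart from the rest: pde6ga was below 0 on each array of both groups, at -1.64 and -1.29 on average, while the means of the other 9 members lay between -0.43 and 0.56. On single arrays the gap was not always there: pde6c was below pde6ga on AgNO3 replicate 5, at -1.07 against -0.97, and on AgNPs replicate 4, at -0.38 against -0.32. In AgNO3, 6 of 10 members had a mean above 0 and the median over members was 0.15, against -0.0056 over all features. In AgNPs, 7 of 10 had a mean above 0 and the median was 0.18, against 0.0028. In limma's fit over all features, 0 of 10 members passed an adjusted p of 0.05 in AgNO3, where 0.0119% of features did, and 0 of 10 passed in AgNPs, where 0.0237% did. An unadjusted p under 0.05 was reached by 4 members in AgNO3, 2 higher and 2 lower, beside 8.25% of features, and by 6 in AgNPs, 5 higher and 1 lower, beside 4.24%. The members were chosen with these contrasts known, so counts and values against control are given as a description and nothing is read from them.

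**Figure D1:**
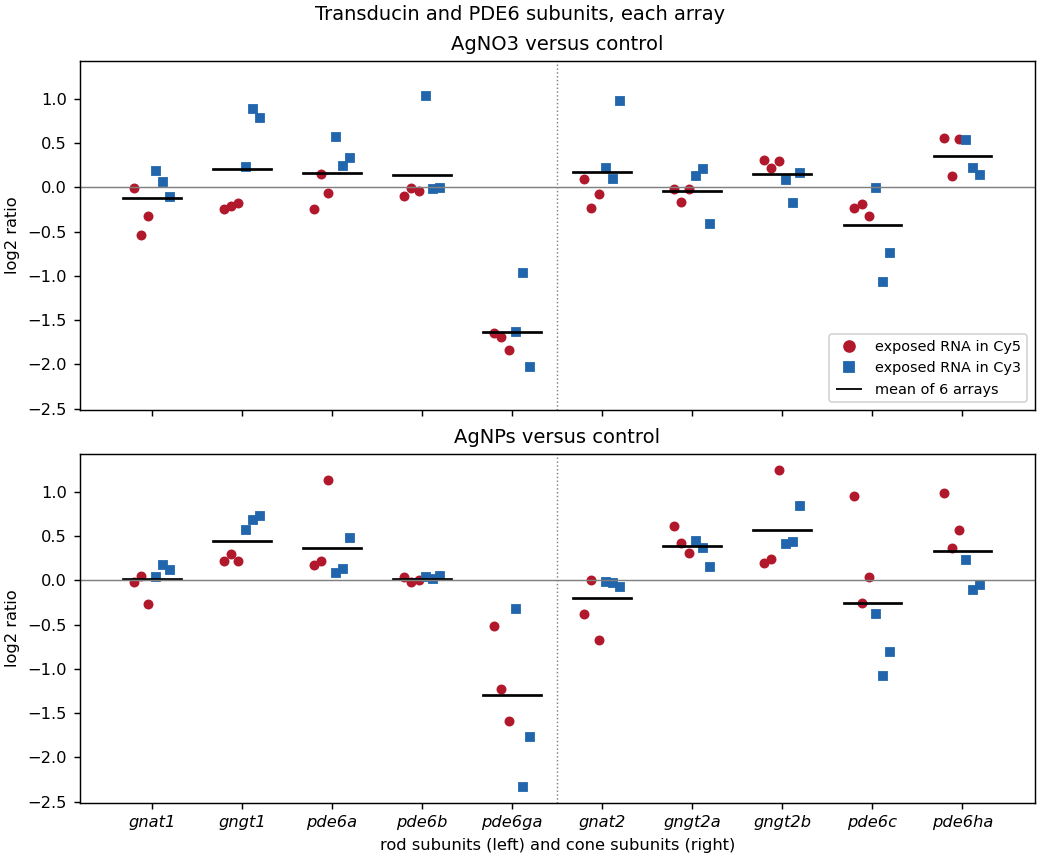
Log2 ratio of exposed over control RNA (vertical axis) for each of the 10 subunit genes (horizontal axis, rod subunits left of the dotted line) on the 6 AgNO3 arrays (top) and 6 AgNPs arrays (bottom). Red circles are arrays with exposed RNA in Cy5, blue squares arrays with it in Cy3, and black bars the mean of 6 arrays; pde6ga has the lowest mean in both groups, -1.64 and -1.29.

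The inhibitory subunit of rod PDE6 holds the enzyme silent in the dark, and its gene pde6ga had the lowest ratio of the 10. On the AgNO3 arrays, pde6ga had a lowest, median and highest log2 ratio of -2.04, -1.67 and -0.97. All 6 values were below 0, and 5 of them were at or below -1.64. The mean was -1.64 ± 0.36 (SD, n = 6), a 3.11-fold lower ratio, with adjusted p = 0.10 in limma. On the AgNPs arrays, the lowest, median and highest were -2.33, -1.40 and -0.32, again all below 0 but spread more widely. The mean there was -1.29 ± 0.77 (SD, n = 6), 2.45-fold lower, with adjusted p = 0.295 in limma. Ordered from the lowest, pde6ga was number 4 of 25264 features in AgNO3 and number 3 in AgNPs. All of this rests on 1 probe. By orientation, the AgNO3 mean was -1.73 ± 0.10 with exposed RNA in Cy5 and -1.55 ± 0.54 with it in Cy3, and the AgNPs mean -1.11 ± 0.55 with exposed RNA in Cy5 and -1.47 ± 1.04 with it in Cy3 (SD, n = 3 each). The probe thus gave a low value whichever dye carried the exposed RNA. If the arrays with exposed RNA in Cy3 had not been turned before deposit, turning them would put pde6ga at -0.090 in AgNO3 and 0.18 in AgNPs, so its place at the low end depends on that reading, and the part of dye in it was not tested.

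The array held 3 further genes for inhibitory PDE6 subunits, and none of them had a mean as low as that of pde6ga. With probes averaged, the cone gene pde6ha had AgNO3 values whose lowest, median and highest were 0.13, 0.37 and 0.56. They were above 0 on 6 of 6 arrays, with a mean of 0.35 ± 0.21 (SD, n = 6), but each of its 3 probes was below 0 on 1 array. With the arrays that carried exposed RNA in Cy3 turned, pde6ha would stand at 0.058 in AgNO3, above 0 on 3 of 6 arrays. In AgNPs it would then stand at 0.31. In AgNPs its values were -0.11, 0.30 and 0.98, above 0 on 4 of 6 arrays, with a mean of 0.33 ± 0.41 (SD, n = 6), or 0.20 without replicate 1. The means of its 3 probes ran from 0.26 to 0.42 in AgNO3 and from -0.011 to 0.54 in AgNPs. The lowest in each group was that of the 1 probe assigned through the older symbol pde6h rather than an accession. With only probes named through an accession, pde6ha averaged 0.40 in AgNO3 and 0.50 in AgNPs. The gene pde6gb, the other copy of the rod gene by name, had means of -0.055 ± 0.26 (SD, n = 6) in AgNO3 and 0.14 ± 0.19 (SD, n = 6) in AgNPs. Its 4 probes averaged -0.11 to 0.0093 in AgNO3 and -0.31 to 0.32 in AgNPs, so none had a mean as low as that of the pde6ga probe. All but 1 of the 4 were assigned to pde6gb through the older symbol pde6g, which carries no copy letter. For pde6hb, the other copy of the cone gene, the means were -0.23 ± 0.40 (SD, n = 6) and 0.10 ± 0.67 (SD, n = 6), with arrays on both sides of 0 in either group. Without replicate 5 the AgNO3 mean of pde6hb was -0.11, and without replicate 1 its AgNPs mean was -0.088. By orientation, the AgNPs mean of pde6hb was 0.64 with exposed RNA in Cy5 and -0.43 with it in Cy3. Binding of a probe to transcripts of a sister gene was not tested.

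**Figure D2:**
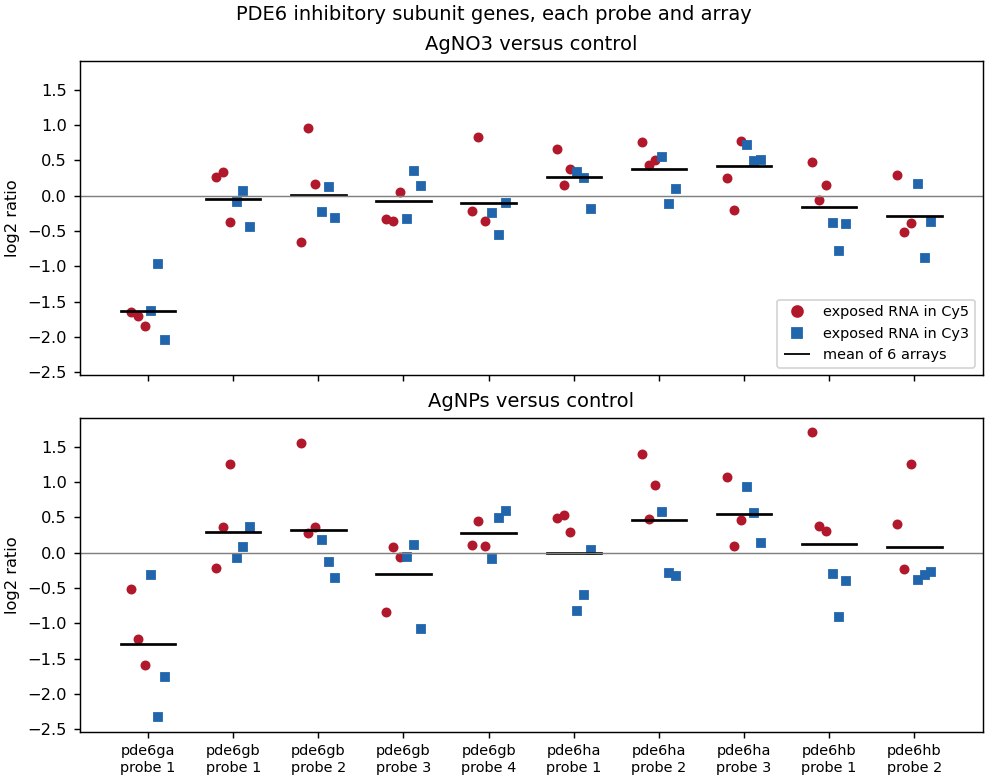
Log2 ratio (vertical axis) of each probe of the 4 PDE6 inhibitory subunit genes (horizontal axis) on the AgNO3 arrays (top) and AgNPs arrays (bottom), with symbols as in the plot of all members. The single pde6ga probe averages -1.64 and -1.29, below each of the 9 probes of the other genes.

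The catalytic subunits of PDE6, which cut cyclic GMP, had means nearer to 0 than pde6ga in both groups. The rod gene pde6a had a lowest, median and highest ratio of -0.25, 0.20 and 0.56 in AgNO3 and 0.083, 0.19 and 1.14 in AgNPs. It was above 0 on 4 of 6 AgNO3 arrays and on 6 of 6 AgNPs arrays, with means of 0.16 ± 0.29 (SD, n = 6) and 0.37 ± 0.40 (SD, n = 6). Without AgNO3 replicate 4, its AgNO3 mean was 0.081. The highest AgNPs value was that of replicate 3, at 1.14, where 1 of its 2 probes had no value, and without that array the mean was 0.21. The other rod gene, pde6b, stood close to 0 with -0.10, -0.016 and 1.03 in AgNO3 and -0.021, 0.025 and 0.045 in AgNPs. A single AgNO3 array, replicate 4, gave the highest of these, and there too 1 of 2 probes had no value. Without that array the AgNO3 mean of pde6b was -0.036, against 0.14 ± 0.44 (SD, n = 6) with it. The AgNPs mean of pde6b was 0.019 ± 0.026 (SD, n = 6), with the narrowest spread of the 10 members. Some of its values were repeated exactly by other probes. Both pde6b probes read -0.009029 on AgNO3 replicate 6. On AgNPs replicate 4, 1 equalled a pde6a probe at 0.036543 and the other a gnb1b probe at 0.033092. Whether pde6b was detected at all was not tested, so its narrow spread does not show stable expression. The cone gene pde6c, measured by 1 probe, was the only catalytic subunit below 0 on 6 of 6 arrays, in AgNO3, where its values were -1.07, -0.28 and -0.013 and the mean -0.43 ± 0.40 (SD, n = 6). In AgNPs they were -1.07, -0.32 and 0.96 with a mean of -0.25 ± 0.71 (SD, n = 6), so that arrays lay on both sides of 0. There, 3 arrays with exposed RNA in Cy5 averaged 0.25 and the 3 with it in Cy3 -0.75. The AgNPs mean of pde6c was -0.50 without replicate 1, -0.089 without replicate 5 and 0.35 without replicates 3 to 6. With the Cy3 arrays turned, pde6c would stand at 0.18 in AgNO3, below 0 on 3 of 6 arrays, and at 0.50 in AgNPs.

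The gamma subunits anchor transducin to the disc membrane. With probes averaged, all 3 of their genes were above 0 on each of the 6 AgNPs arrays. The rod gene gngt1, measured by 1 probe, had a lowest, median and highest ratio of 0.21, 0.43 and 0.73 in AgNPs. Its mean was 0.45 ± 0.24 (SD, n = 6). The cone genes gave 0.15, 0.40 and 0.61 for gngt2a, with a mean of 0.39 ± 0.15 (SD, n = 6), and 0.20, 0.43 and 1.25 for gngt2b, with a mean of 0.56 ± 0.40 (SD, n = 6). Of the 2 gngt2a probes, 1 was below 0 on AgNPs replicates 4 and 5, at -0.064 and -0.062, and they correlated at -0.11. The mean of gngt2b leaned on AgNPs replicate 3, at 1.25, and without it was 0.43. With pde6a, these make 4 of 10 members above 0 on all 6 AgNPs arrays, beside 2.55% of features with 6 values, and 1 of 10, pde6ga, below 0 on all 6, beside 2.33%. In AgNO3 the gamma subunits were less uniform. There gngt1 had -0.24, 0.022 and 0.88, gngt2a -0.41, -0.022 and 0.21 and gngt2b -0.17, 0.19 and 0.31, with means of 0.21 ± 0.51 (SD, n = 6), -0.047 ± 0.22 (SD, n = 6) and 0.15 ± 0.18 (SD, n = 6). Without replicate 5 the AgNO3 mean of gngt1 was 0.075, and without replicate 6 that of gngt2a was 0.026. For gngt1 the 3 arrays with exposed RNA in Cy5 were all below 0, averaging -0.21, and the 3 with it in Cy3 all above, averaging 0.63. On all 6 AgNO3 arrays, 1 of 10 members was above 0, pde6ha, beside 2.01% of features, and 2 of 10 were below, pde6ga and pde6c, beside 2.54%.

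The alpha subunits of transducin bind the nucleotide and carry the signal to PDE6, and neither lay on 1 side of 0 in either group. The rod gene gnat1 had a lowest, median and highest ratio of -0.53, -0.058 and 0.19 in AgNO3 and -0.26, 0.046 and 0.17 in AgNPs, with means of -0.12 ± 0.26 (SD, n = 6) and 0.018 ± 0.15 (SD, n = 6). Without replicate 2 its AgNO3 mean was -0.038, and without replicate 3 its AgNPs mean was 0.073. The cone gene gnat2 had -0.23, 0.091 and 0.97 in AgNO3 and -0.67, -0.052 and 0.0092 in AgNPs, with means of 0.18 ± 0.42 (SD, n = 6) and -0.19 ± 0.27 (SD, n = 6). The highest of the gnat2 values in AgNO3 was that of replicate 6, and without it the mean was 0.019; the AgNPs mean was -0.10 without replicate 3. Of the beta subunits, the array held 2 copies each of GNB1, used by mammalian rods, and GNB3, used by mammalian cones. The GNB1 copy gnb1a had means of -0.018 ± 0.063 (SD, n = 6) in AgNO3 and -0.0040 ± 0.065 (SD, n = 6) in AgNPs, and gnb1b had -0.13 ± 0.14 (SD, n = 6) and 0.092 ± 0.19 (SD, n = 6). The means of the GNB3 copies differed in sign in AgNPs. There gnb3b averaged 0.35 ± 0.29 (SD, n = 6), above 0 on 5 of 6 arrays, and gnb3a -0.15 ± 0.29 (SD, n = 6), below 0 on 4 of 6, or -0.037 without replicate 1. Some gnb3a values were repeated exactly by probes of other genes. In AgNPs, 1 gnb3a probe equalled an rgs9bp probe at 0.02169 on replicate 3 and an rgs9b probe at 0.095032 on replicate 6. Whether gnb3a was detected was not tested, so the contrast in sign need not reflect expression. In AgNO3, gnb3b and gnb3a stood at 0.18 ± 0.23 (SD, n = 6) and 0.20 ± 0.41 (SD, n = 6), the latter 0.047 without replicate 2.

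Dye orientation moved with several of these values, as the plot of 1 orientation against the other shows. In AgNO3, the mean of 5 of 10 members changed sign between orientations (gnat1, gngt1, pde6a, pde6b and gnat2), and in AgNPs that of 2 (gnat1 and pde6c). The members with the same sign in both orientations and groups were pde6ga, gngt2b and pde6ha. Their sizes could still differ: pde6ha in AgNPs averaged 0.64 with exposed RNA in Cy5 and 0.024 with it in Cy3. Likewise gngt2b in AgNO3 averaged 0.28 with exposed RNA in Cy5 and 0.023 with it in Cy3. In AgNPs, gngt1 averaged 0.24 ± 0.048 with exposed RNA in Cy5 and 0.66 ± 0.084 with it in Cy3 (SD, n = 3 each), and gngt2b 0.56 ± 0.59 with exposed RNA in Cy5 and 0.56 ± 0.24 with it in Cy3. If the Cy3 arrays had not been turned before deposit, turning them would leave gngt1 at -0.21, gngt2a at 0.066 and gngt2b at -0.00040 in AgNPs, and gngt1 at -0.42 in AgNO3. Under that reading gngt1 would be below 0 on 6 of 6 AgNO3 arrays, and the gamma subunits would not share a direction in AgNPs.

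**Figure D3:**
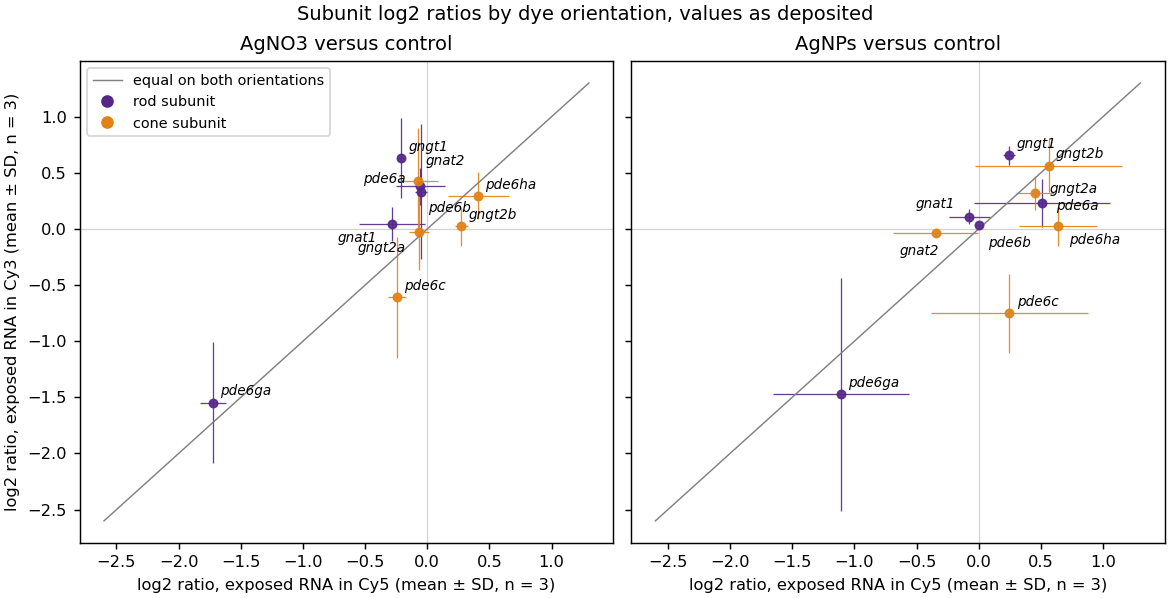
Mean log2 ratio over the 3 arrays that carried exposed RNA in Cy5 (horizontal axis) against that over the 3 that carried it in Cy3 (vertical axis) for each subunit gene in AgNO3 (left) and AgNPs (right), with bars of 1 SD. Points on the grey line have equal values in both orientations: pde6ga lies far below 0 near it in AgNO3, at -1.73 and -1.55, while gngt1 in AgNO3 lies at -0.21 and 0.63.

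Rod and cone subunits were then set side by side as the mean of 5 genes on each array. In AgNO3 the rod mean was -0.25 ± 0.26 and the cone mean 0.041 ± 0.12 (SD, n = 6), and the rod mean was the lower on 5 of 6 arrays. In AgNPs they were -0.087 ± 0.12 and 0.17 ± 0.20, and the rod mean was the lower on 6 of 6. Rod minus cone averaged -0.29 ± 0.30 in AgNO3 and -0.25 ± 0.17 in AgNPs. With the Cy3 arrays turned, the AgNPs rod mean would be 0.0019 and rod minus cone -0.14 ± 0.29, with the rod mean the lower on 3 of 6 arrays. In AgNO3 the gap would be -0.24 ± 0.35, with the rod mean the lower on 4 of 6. With the arrays as deposited, the gap rested on pde6ga. Without pde6ga, a setting chosen after seeing the data, the rod mean was 0.10 in AgNO3 and 0.21 in AgNPs. Rod minus cone was then 0.057 ± 0.31 and 0.047 ± 0.26. The median over the 5 rod genes was above 0 in both groups, 0.14 and 0.019, opposite in sign to the mean, while the cone median was 0.15 and 0.33. Without pde6ga the rod-minus-cone gap differed by orientation. It was below 0 on 3 of 3 arrays where Cy5 carried the exposed RNA, averaging -0.21 in AgNO3 and -0.14 in AgNPs. It was above 0 on 3 of 3 arrays with it in Cy3, averaging 0.32 and 0.23. With the Cy3 arrays turned, the gap without pde6ga would thus be below 0 in both orientations and both groups. Under that reading it would not rest on pde6ga.

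**Figure D4:**
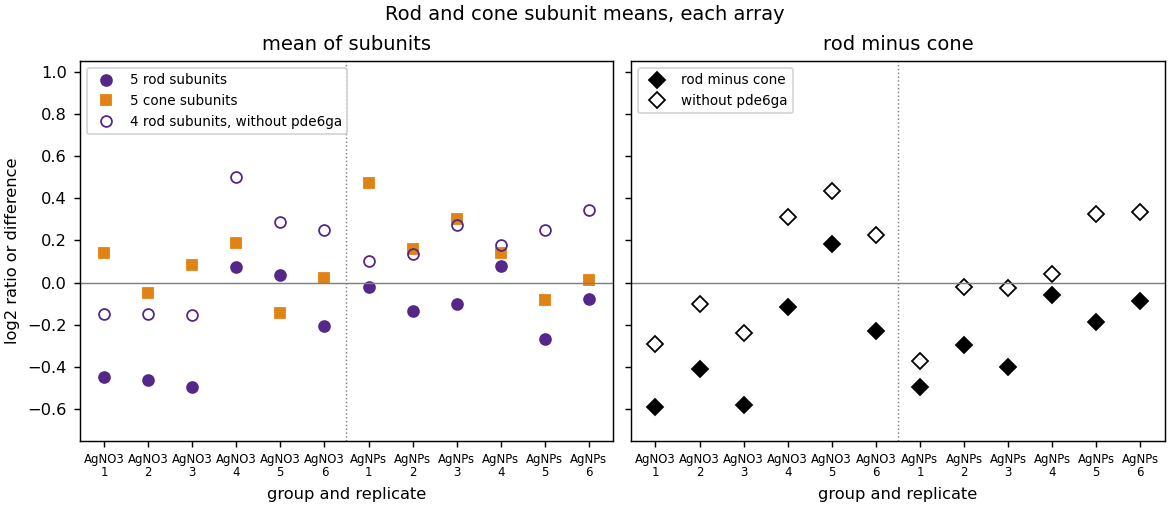
Mean log2 ratio of the 5 rod subunits, the 5 cone subunits and the 4 rod subunits other than pde6ga (left), and rod minus cone (right), on each array (horizontal axis, AgNO3 left of the dotted line). The 5 rod subunits average -0.25 in AgNO3 and -0.087 in AgNPs, and without pde6ga 0.10 and 0.21.

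The silver salt was compared with the particles directly, as the difference of log2 ratios AgNO3 minus AgNPs. No member differed past the threshold: in limma the adjusted p was 0.858 to 0.981, and 0% of all features passed. The members were chosen with the values of both groups known, so the p-values and intervals here are a description and nothing is read from them. Unadjusted p was under 0.05 for 3 of 10 members, all of them cone transducin subunits, beside 4.22% of features. These were gngt2a, with a difference of -0.43 (95% interval -0.69 to -0.18), gngt2b, with -0.41 (95% interval -0.80 to -0.025), and gnat2, with 0.37 (95% interval 0.014 to 0.73). All 3 depend on the arrays as deposited. With the Cy3 arrays turned, an alternative added after seeing the data, the difference would be -0.088 (95% interval -0.47 to 0.30) for gngt2a, 0.13 (95% interval -0.35 to 0.60) for gngt2b and -0.10 (95% interval -0.53 to 0.33) for gnat2, the last 2 opposite in sign, and unadjusted p would be under 0.05 for 0 of 10 members. For pde6ga the difference was -0.35 (95% interval -1.09 to 0.40), an interval that holds both 0 and differences of over 1 log2 unit. For the rod transducin subunits it was -0.14 (95% interval -0.37 to 0.088) for gnat1 and -0.24 (95% interval -0.51 to 0.030) for gngt1. For the catalytic subunits it was -0.21 (95% interval -0.65 to 0.23) for pde6a, 0.12 (95% interval -0.25 to 0.49) for pde6b and -0.17 (95% interval -0.73 to 0.38) for pde6c, and for pde6ha it was 0.020 (95% interval -0.31 to 0.35).

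**Figure D5:**
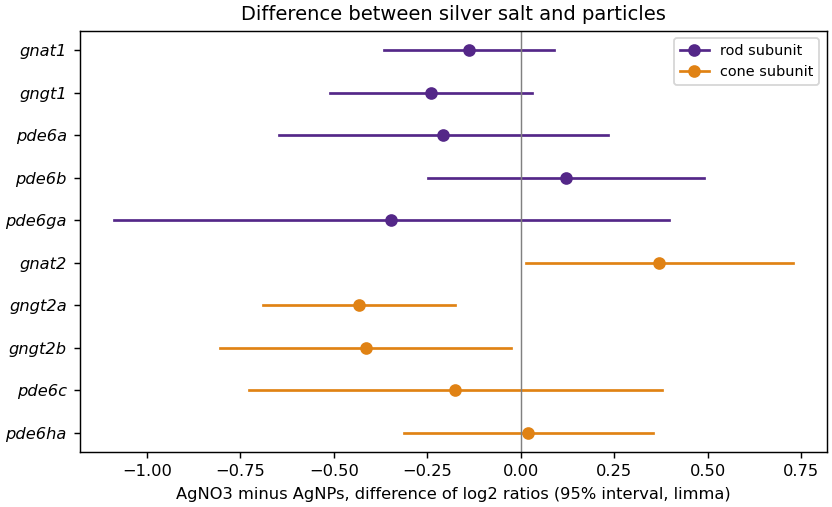
Difference of log2 ratios between AgNO3 and AgNPs (horizontal axis) for each subunit gene, with the 95% interval from limma over 12 arrays. The intervals of gngt2a, gngt2b and gnat2 do not reach 0 before adjustment over 25264 features; the other 7 cross it.

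Correlations between members from array to array were mostly weak. Over the 12 arrays, the median Pearson correlation was 0.11 between pairs of rod genes, 0.013 between pairs of cone genes and 0.10 between a rod and a cone gene. The highest was 0.87, between pde6c and pde6ha, and the lowest -0.62, between gnat2 and gngt2a. Pairs of arrays share a control sample and arrays share an orientation, so these are descriptions. Probes of 1 gene also disagreed. The 2 probes of gnat1 correlated at -0.19 and those of pde6b at -0.58, against 0.53 for gngt2b and up to 0.63 for gnat2. Over 9042 genes with at least 2 probes, the median correlation between probes was 0.033, and for the 7 such members it was 0.11. The SD over arrays had a median of 0.32 for members and 0.29 for all features in AgNO3, and of 0.34 and 0.20 in AgNPs.

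Of 11942 other named genes with a value on all 12 arrays, those whose ratios ran most like pde6ga were cetn2 (0.91), atp5pf (0.86), gpr173 (0.85), ly75 (0.85) and hddc2 (0.82), with Pearson's r in brackets. For gnat1 they were etf1b (0.91), mtm1 (0.87), ccdc40 (0.86), clint1a (0.86) and spata17 (0.85), and for gnat2 en1b (0.96), krt92 (0.93), coq2 (0.92), krt1-19e (0.91) and mdh1aa (0.89). None of the 15 is on the photoreceptor lists used here. The highest of so many correlations over 12 arrays are large by selection, so they name neighbours in pattern only.

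The genes listed as partners of the subunits showed no shared direction. The list of 23 held beta subunits, PDE6 sister subunits and proteins that chaperone or switch off G proteins or PDE6, and 16 were tested. Whether the listed rgs11 and ric8b act on transducin was not tested. In AgNO3, 6 of 16 tested members were above 0 and 10 below, with a median of -0.013; in AgNPs, 8 were above 0 and 8 below, with a median of 0.044. None passed in either group by limma. There 1 of 16 had an unadjusted p under 0.05 in AgNO3 and 1 of 16 in AgNPs, beside 8.25% and 4.24% of all features. The 1 in AgNO3 was unc119b, a copy of the gene for a carrier of the transducin alpha subunit, at -0.45 ± 0.65 (SD, n = 6), or -0.22 without replicate 5. Its AgNO3 mean was -0.063 with exposed RNA in Cy5 and -0.83 with it in Cy3. The 1 in AgNPs was gnb3b, at 0.48 with exposed RNA in Cy5 and 0.21 with it in Cy3. The gene rgs9b, for the protein that speeds the shut-off of transducin, had 0.12 ± 0.11 (SD, n = 6) in AgNO3, above 0 on 6 of 6 arrays. Of its 4 probes, 1 averaged 0.43 there and the others -0.0092 to 0.0014. In AgNPs rgs9b had 0.15 ± 0.36 (SD, n = 6). That mean rested on replicate 5, at 0.88, where the same probe read 2.58. The other 5 arrays lay between -0.032 and 0.049, and without replicate 5 the mean of rgs9b was 0.0058. Its anchor rgs9bp stood at 0.10 ± 0.63 (SD, n = 6), or -0.086 without replicate 2, and at -0.057 ± 0.24 (SD, n = 6). For pde6d, which ferries prenylated proteins such as PDE6, the means were -0.036 and -0.038. The phosducins, which bind free beta and gamma subunits, stood at 0.023 and 0.10 for pdca and at -0.0082 and -0.13 for pdcb. In AgNPs, pdcb changed sign with orientation, at 0.17 with exposed RNA in Cy5 and -0.42 with it in Cy3. The remaining tested partners, gnb5a, gnb5b, rgs11 and ric8b, had means between -0.29 and 0.14. Several partner probes repeated values of other probes exactly in AgNPs. The rgs11 probe equalled unc119b probes at -0.025327 on replicate 3 and at 0.033092 on replicate 4. Whether these partners were detected was not tested, so their places above or below 0 need not reflect expression.

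Beyond these complexes, the rest of the phototransduction cascade was taken as a list of 46 opsins, arrestins, kinases, cyclases, channels and calcium sensors, of which 29 were tested. In AgNO3, 18 of 29 tested members were above 0 and 11 below, with a median of 0.13, and 0 passed. In limma an unadjusted p under 0.05 was reached by 5 higher and 2 lower, beside 8.25% of all features. The list was chosen with earlier results known, so such counts are a description. In AgNPs, 18 of 29 tested members were above 0 and 11 below, with a median of 0.039. Unadjusted p in limma was under 0.05 for 5 higher and 3 lower, beside 4.24% of all features. There 1 passed in each direction, beside 0.0237% of all features. These were the green cone opsin opn1mw1, at 0.86 (adjusted p = 0.00663 by limma), and the cyclase activator guca1c, at -0.73 (adjusted p = 0.0247). Like pde6ga, guca1c was below 0 in AgNO3 as well, at -0.59 (adjusted p = 0.101). Both calls depend on the arrays as deposited: with the dye-swapped arrays turned, or with the AgNPs group fitted alone, 0 features passed in AgNPs.

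Markers of other cells of the eye and pineal were read beside the members, because whole larvae hold them all. Lens crystallin and lens membrane genes had a median of 0.048 in AgNO3 and 0.0027 in AgNPs over 19 genes. Müller glia and pigment epithelium markers had 0.060 and 0.0056 over 15 genes. Inner retina neuron markers had 0.060 and -0.015 over 19, and pineal markers 0.011 and 0.0027 over 11. The pineal list shares exorh, crx and otx5 with the photoreceptor lists. On single arrays the mean over the lens list ranged from -0.45 to 0.36 in AgNO3 and from -0.34 to 0.37 in AgNPs, and its part in the members' values was not tested. No marker of these 4 lists passed in either group by limma. At an unadjusted p under 0.05 there were 3 in AgNO3 and 2 in AgNPs, beside 8.25% and 4.24% of all features.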

How the data were processed

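The deposited values were log2 ratios per probe on 12 arrays (base assumed), 43603 probes each, with array medians from -0.0093 to 0.015. The deposit's scanner software, background correction and normalization steps (not given in the sources used here) could change every ratio. Between 6.97% and 10.9% of an array's values were empty. Per the labels' protocols, Trizol was used for extraction and cyanine dyes for labelling.

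Gene names came from the platform annotation and were brought up to date with RefSeq: 24749 by accession, 4278 by symbol, 1133 by synonym, 26 with the old symbol kept, and 13417 unnamed. The annotation's zgc:112320 became pde6ga, pde6h became pde6ha and pde6g became pde6gb. Probes were averaged per gene and array. A feature was tested with values on at least 2 of 3 arrays of each orientation in each group. One fit in limma 3.58.1 (R 4.3.3) held a mean per exposed group and a dye term, with 2-sided moderated tests and Benjamini-Hochberg adjustment over 25264 features at 0.05. The fit was tested on simulated data. Named genes were all members, all tested partners, the 5 genes most correlated with gnat1, gnat2 and pde6ga, and, where a result turned on them, the 3 highest and 3 lowest genes of a list over 12 arrays. Members and lists were chosen with earlier results of these data known.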

Additional observations from a re-analysis of the deposited data

Results flagged for a closer look

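In 4 of 26 sets of 6 arrays (10 genes and 3 means in each group), 1 array lay far from the other 5 by Dixon's criterion for 6 values; chance does this in about 1 in 20 sets. For pde6b, AgNO3 replicate 4 stood at 1.03, with the other 5 between -0.10 and -0.0044. For pde6a, AgNPs replicate 3 stood at 1.14, with the other 5 between 0.083 and 0.48. On both of these arrays, 1 of the gene's 2 probes had no value. For pde6ga, AgNO3 replicate 5 stood at -0.97, the highest of the group, with the other 5 between -2.04 and -1.64. For gnat2, AgNO3 replicate 6 stood at 0.97, with the other 5 between -0.23 and 0.22, and on that array its 3 probes were at 0.38, 0.62 and 1.91.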

How the results depend on the processing

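With 1 array left out, the number of features past the threshold ran from 0 to 2 in AgNO3 (3 with all arrays), from 1 to 7 in AgNPs (6) and from 0 to 1 for AgNO3 minus AgNPs (0), with 0 members among them. The AgNO3 count fell below its value with any array left out, to 2 at best; the AgNPs count was 1 without AgNPs replicate 5 and 3 without AgNO3 replicate 1, AgNO3 replicate 4 or AgNPs replicate 1; the difference had 1 without AgNO3 replicate 4. The rod mean ran from -0.31 to -0.20 in AgNO3 and -0.12 to -0.051 in AgNPs, the cone mean from 0.011 to 0.078 and 0.11 to 0.22, and rod minus cone from -0.38 to -0.23 and -0.29 to -0.21. In AgNO3, the count was 0 when all arrays were given 1 spread, 0 with only probes named through an accession, 0 with array weights and 0 with the group fitted alone. In AgNPs it was 16 scaled, 10 with array weights, 0 with the group alone and 0 with the dye-swapped arrays turned. The cause of these shifts was not tested. Scaling was the 1 setting in which a member passed: gngt1 in AgNPs, at 0.80 with adjusted p = 0.0110 in limma, where pde6ga stood at -2.06 in AgNPs and -1.17 in AgNO3. In the other settings counted, 0 members passed. Without pde6ga, chosen after seeing the data, the rod mean was 0.10 in AgNO3 and 0.21 in AgNPs, and rod minus cone 0.057 and 0.047, by construction of the mean. Of 216 alternative values of single members, 17 moved by more than 1 SD over arrays, all of them with the swapped arrays turned or with scaling. Same-numbered arrays of both groups correlated at -0.029 to 0.077 in their deviations, and 1 of 6 AgNO3 arrays correlated best with its own number, so the numbers were not taken to pair samples. With the replicate number as a block, 0 features differed between the groups and no member's difference changed its call. The control sample as a random block had a consensus correlation of 0.037, and 3, 6 and 0 features passed in AgNO3, AgNPs and their difference.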

Other observations

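Genes that build the outer segment or set photoreceptor fate were taken as a further list of 36, of which 25 were tested. In AgNO3, 16 of 25 tested members were above 0 and 9 below, with a median of 0.065, and in AgNPs 19 were above 0 and 6 below, with a median of 0.072. None passed by limma in either group. At an unadjusted p under 0.05 there were 5 in AgNO3 and 4 in AgNPs, beside 8.25% and 4.24% of all features. The rod fate genes nrl and nr2e3, named after their values were seen, stood at -0.0067 and 0.30 in AgNO3 and at 0.15 and 0.037 in AgNPs. The lowest mean over 12 arrays was that of six7, a homeobox gene needed for green cone opsins in zebrafish, at -0.84 in AgNO3 and -0.31 in AgNPs. The highest was that of foxq2, a regulator of blue cone opsin in zebrafish, at 0.33 and 0.44.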
